A study of Mus musculus with 6 samples.

Results

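The genes Vcl, Tln1, Pxn, Zyx, Ptk2, Ilk, Parva, Flna, Actn1 and Actn4 encode adaptor and actin-linking proteins of focal adhesions. They were chosen by symbol, taking for each symbol its most highly expressed entry. All 10 were found among the 37753 entries of the expression table, and all 10 were among the 12461 entries tested. Expression was measured by RNA sequencing of cultured mouse cells as FPKM, fragments per kilobase of transcript scaled to the mapped fragments of the library, a level that can be compared between genes.

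The study compared mammary epithelial cells (MEC) with mammary tumor cell lines (MEKO), at 3 libraries in each group. The MEC were primary cells of Wap-Cre mice with intact Mapk8 and Mapk9, the genes of the kinases JNK1 and JNK2, and each culture pooled 3 to 5 virgin females aged 10 to 12 weeks. The MEKO lines, numbered 199, 233 and 336, were each grown from tumor tissue of mice carrying Wap-Cre and conditional alleles of both Mapk8 and Mapk9. Both groups carried Wap-Cre and were labelled C57/Bl6J. Cre driven by the Wap promoter acts in luminal cells of the lactating gland, so the control animals, which were virgin, also differed from the tumor-bearing animals, which were parous, in reproductive history. The MEC were harvested near confluence on collagen I. The tumor cells spent 2 passages on collagen I, were moved to uncoated dishes and were harvested as established lines. Genotype, tumor origin, time in culture and substrate therefore differ together between the groups and cannot be told apart.

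A focal adhesion is the site where integrins, the receptors for extracellular matrix, are joined to the actin cytoskeleton. Talin binds the integrin tail and actin, vinculin reinforces that bond, the kinase-like protein ILK holds parvin at the integrin tail, and paxillin and the focal adhesion kinase FAK form the signaling layer. The α-actinins and filamin A cross-link the actin filaments, and zyxin is recruited to adhesions and stress fibers under tension.

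Both targeted genes were low in the MEKO lines. Mapk8 was 23.1, 25.1 and 19.2 FPKM in MEC 1, 2 and 3 and 5.93, 3.12 and 1.37 FPKM in lines 199, 233 and 336 (adjusted p = 0.0146, limma). Mapk9 was 24.4, 21.5 and 22.1 FPKM in MEC and 7.62, 3.15 and 3.07 FPKM in the lines (adjusted p = 0.0122). Line 199 held the most of both. The summed FPKM of a library ranged from 557991 to 638365. The smallest values put the relative depth of the libraries between 0.96 and 1.31 of that of MEC 1, with line 199 the deepest. This estimate is rough, since it rested on 98 to 189 genes a library, of which 28.7% to 46.5% lay at the ratio used. The tissue label was checked against 6 luminal markers (Krt8, Krt18, Krt19, Epcam, Cdh1 and Elf5). Their summed level was 5352 to 8902 FPKM in MEC and 789.4 to 1962 FPKM in MEKO, and for all 6 every MEKO line was below every MEC library. In line 199, 6 basal and myoepithelial markers summed to 1865 FPKM, within the MEC range of 1282 to 2242 FPKM, and in lines 233 and 336 to 9.92 and 45.1 FPKM. The sum in line 199 came mainly from Krt5, Krt14 and Acta2, while Myh11 (0.0812 FPKM, 22.4 to 41.8 FPKM in MEC) and Oxtr (0.0125 FPKM, 5.05 to 25.9 FPKM in MEC) were near 0 there. In line 199, 7 fibroblast markers summed to 1100 FPKM, against 98.8 to 190.5 FPKM in MEC and 2.4 and 4.22 FPKM in lines 233 and 336. That sum came mainly from Col1a1 (599.7 FPKM) and Col1a2 (408.1 FPKM), while Dcn (0.311 FPKM, 3.29 to 6.62 FPKM in MEC) and Lum (0.0264 FPKM, 0.507 to 1.28 FPKM in MEC) were below MEC in line 199. Line 199 thus stood apart from the other lines, and results that rest on it are given with and without it.

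The 4 genes Actn1, Zyx, Ilk and Actn4 fell in MEKO, and none of the 10 rose. A gene was called when its adjusted p was under 0.05 in a limma fit of log2(FPKM + 1) over all tested entries and its log2 fold change was beyond 0.75. Of all tested entries 7.26% were called lower and 2.64% higher, so 4 of 10 lower lies above the background and 0 of 10 higher does not stand out from it. The median log2 fold change was -0.56 over the 10 genes and 0.01 over all tested entries. For 6 of the 10 (Vcl, Zyx, Ilk, Parva, Actn1 and Actn4) every MEKO line was below every MEC library, which held for 18.7% of all tested entries. For Pxn every line was above every MEC library, which held for 18.5%. Tln1, Ptk2 and Flna overlapped between the groups. Without line 199 the calls were 5, with Flna added. They were 3 without MEC 3 or without line 336, with Zyx lost. They were 2 without MEC 1 (Actn1 and Actn4) and 1 without MEC 2 (Actn1). Lower calls over all tested entries were 905 with all libraries, and 1340, 748 and 673 without lines 199, 233 and 336. Without MEC 1, 2 and 3 they were 251, 279 and 457. With 3 libraries against 3, an exact two-sided permutation test cannot give a p below 0.1, and that value was reached by each of the 7 genes whose groups did not overlap. In RNA of whole cultures, fewer cells of a type and less RNA per cell cannot be told apart.

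**Figure D1:**
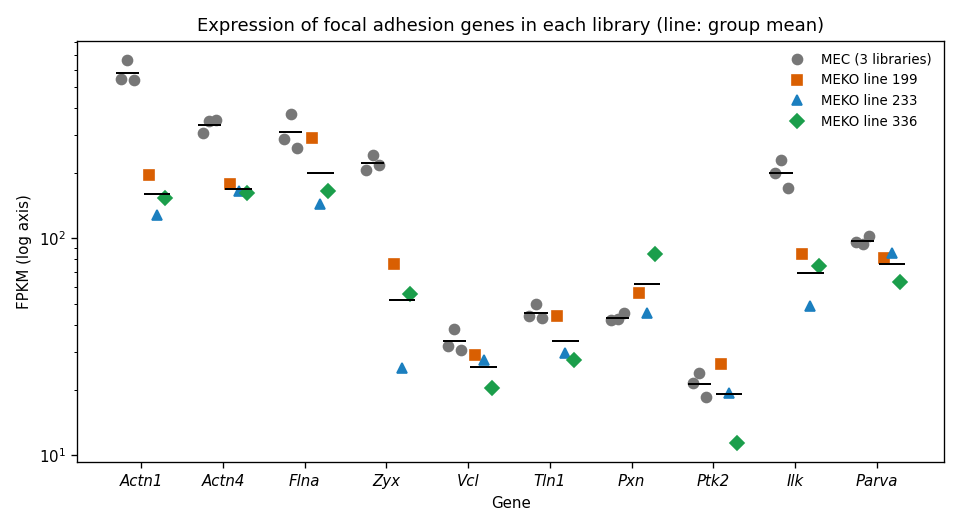
FPKM (log axis) of each gene in the 3 MEC libraries (circles) and in lines 199 (squares), 233 (triangles) and 336 (diamonds), with a line at each group mean. The MEC points of Actn1, Actn4, Zyx and Ilk all lie above the points of the 3 lines, and line 199 reaches the MEC level for Flna and Tln1.

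**Figure D2:**
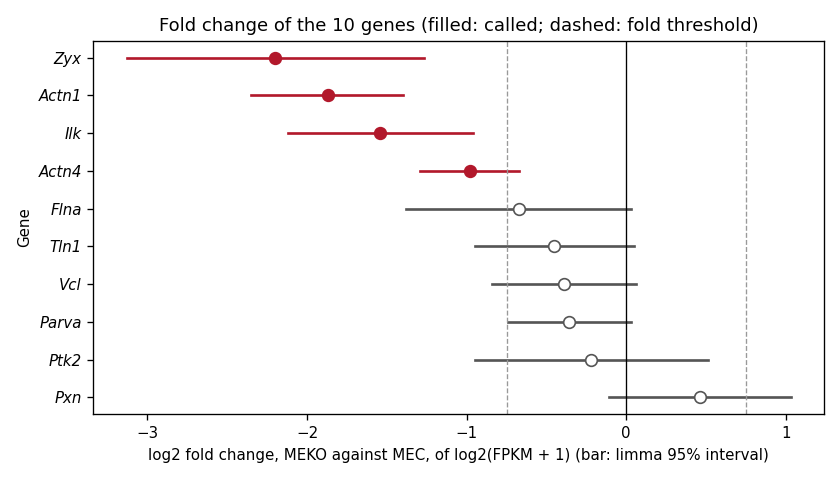
The log2 fold change of each gene, MEKO against MEC, on the log2(FPKM + 1) scale, with its 95% interval from limma. Filled points are the 4 called genes, from Zyx at -2.20 to Actn4 at -0.98, and of the open points Pxn alone lies above 0.

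The promoter sequences of the fallen genes Zyx and Actn4 are printed because their windows held a TGANTCA motif. Its forms TGAGTCA and TGACTCA are the core letters bound by AP-1 (Jun and Fos proteins, of which Jun is a JNK substrate). The match was TGAGTCA in Zyx and TGAATCA, which is neither of these forms, in Actn4. The promoter of Vcl is printed because it was the single window with a CArG box, the element bound by serum response factor, and it was chosen after the search. The windows, from RefSeq on GRCm38.p6, span 250 bases before to 50 bases after a gene's start. They were present for 7 of the 10 genes (not for Pxn, Ptk2 and Parva) and were searched on both strands for the CArG box, TGANTCA and GGAATG, the letters bound by TEAD factors. Below, letters in capitals mark the matches. Only the unbroken stretch around the first match with no base in an annotated exon is printed, within the 250 bases before the start. It has 74 bases for Zyx, 242 for Actn4 and 250 for Vcl.
Zyx, chr6:42349706-42349779, plus strand: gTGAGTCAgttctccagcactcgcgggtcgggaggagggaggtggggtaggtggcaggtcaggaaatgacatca
Actn4, chr7:28962341-28962582, minus strand: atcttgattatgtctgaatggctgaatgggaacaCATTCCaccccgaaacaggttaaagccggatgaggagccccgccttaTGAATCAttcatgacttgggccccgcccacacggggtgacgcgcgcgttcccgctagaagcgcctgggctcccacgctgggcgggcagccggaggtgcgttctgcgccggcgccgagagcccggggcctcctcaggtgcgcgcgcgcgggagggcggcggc
Vcl, chr14:20929148-20929397, plus strand: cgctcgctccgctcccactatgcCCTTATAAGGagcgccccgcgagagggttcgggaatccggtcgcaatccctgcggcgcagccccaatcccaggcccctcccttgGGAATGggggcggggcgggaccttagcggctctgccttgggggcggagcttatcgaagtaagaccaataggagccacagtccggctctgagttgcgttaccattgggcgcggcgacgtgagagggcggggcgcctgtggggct

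The TGANTCA match began 121 bases before the start in Zyx and 169 bases before it in Actn4. In Zyx it lay at the beginning of the first intron of an alternative annotated Zyx transcript. Its letters there overlap the splice site of that intron. The CArG box of Vcl began 227 bases before its start. The letters GGAATG were in the windows of Vcl, Actn4 and Flna. The windows of Actn1, Ilk and Tln1 held none of the 3 motifs, so of the 4 genes that fell, Zyx and Actn4 held TGANTCA and Actn1 and Ilk did not. Of 32851 windows of the same length, 7.81% held TGANTCA, 14.7% GGAATG and 1.63% a CArG box. A match describes letters and is not evidence of binding.

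Of the actin cross-linkers, both α-actinins fell, and filamin A was below the MEC range in 2 of the 3 lines. Actn1 (α-actinin-1, chr12:80167547-80260371 on GRCm38) was the most abundant of the 10 in every MEC library, at 539.9, 665.3 and 538.2 FPKM, and was 196.3, 128.4 and 153.4 FPKM in lines 199, 233 and 336. Every line was far below every MEC library. The mean fell from 581.1 ± 72.9 to 159.4 ± 34.4 FPKM (SD, n = 3 each), 27.4% of the MEC mean, a log2 fold change of -1.87 (SE 0.20, 95% interval -2.35 to -1.40, adjusted p = 0.00411). This call was kept in all 13 alternative fits, with a highest adjusted p of 0.0306 without MEC 1.

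Actn4 (α-actinin-4, chr7:28893248-28962340), the other non-muscle α-actinin, was 304.9, 346.8 and 350.3 FPKM in MEC and 178.7, 164.6 and 162.5 FPKM in the lines. The 3 lines lay close together and all below MEC. The mean fell from 334.0 ± 25.3 to 168.6 ± 8.82 FPKM (SD, n = 3 each), 50.5% of the MEC mean, a log2 fold change of -0.98 (SE 0.13, 95% interval -1.29 to -0.67, adjusted p = 0.00871). Without MEC 2 the adjusted p was 0.056 at a log2 fold change of -0.95. The muscle α-actinins Actn2 and Actn3 were at most 0.0362 and 0.13 FPKM in any library.

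Flna (filamin A, chrX:74223461-74249820), which cross-links actin into networks and binds integrin tails, was 286.1, 376.0 and 261.3 FPKM in MEC and 289.0, 143.7 and 165.3 FPKM in the lines. Line 199 lay inside the MEC range and the other lines below it, so the groups overlapped, at a log2 fold change of -0.67 (SE 0.29, 95% interval -1.38 to 0.03, adjusted p = 0.197). Without line 199 it was -0.98 with an adjusted p of 0.0308, past both thresholds. The basal marker sum in line 199 was also within the MEC range and its fibroblast marker sum above it, both far higher than in lines 233 and 336, and their part in this result was not tested.

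Zyx (zyxin, chr6:42349630-42360213), a LIM-domain protein that recruits actin regulators to adhesions and strained stress fibers, had the largest log2 fold change of the 10. It was 205.9, 242.6 and 217.6 FPKM in MEC and 76.1, 25.3 and 55.2 FPKM in lines 199, 233 and 336. The lines were all below MEC, with line 233 the lowest at 11.4% of the MEC mean. The mean fell from 222.1 ± 18.7 to 52.2 ± 25.5 FPKM (SD, n = 3 each), a log2 fold change of -2.20 (SE 0.38, 95% interval -3.13 to -1.27, adjusted p = 0.0202). On the log2 scale its SE was wider than those of the α-actinins (0.20 for Actn1 and 0.13 for Actn4), and the call was lost in 4 of the 13 alternative fits. These left out MEC 1, MEC 2, MEC 3 or line 336 (adjusted p = 0.0841, 0.0916, 0.0806 and 0.0519), and the log2 fold change stayed between -2.53 and -1.76 in all 13.

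Talin-1 and vinculin, the core of the link from integrin to actin, were not called. Tln1 (chr4:43531519-43562691) was 43.8, 49.6 and 43.2 FPKM in MEC and 43.9, 29.5 and 27.6 FPKM in the lines. Line 199 was at the MEC level and lines 233 and 336 were below it. This gave a log2 fold change of -0.45 (SE 0.21, adjusted p = 0.212), and of -0.65 without line 199 with an adjusted p of 0.0286, still short of the fold threshold. Vcl (chr14:20929398-21033676), whose promoter with the CArG box is printed above, was 32, 38.3 and 30.7 FPKM in MEC and 29.1, 27.5 and 20.4 FPKM in the lines. The highest line lay just below the lowest MEC library, and the log2 fold change was -0.39 (SE 0.19, 95% interval -0.84 to 0.06, adjusted p = 0.234), and no alternative fit called it.

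Of the ILK and parvin pair, Ilk fell and Parva was not called. Ilk (integrin-linked kinase, chr7:105736592-105742925), a pseudokinase that scaffolds parvin and PINCH proteins, was 201.1, 229.2 and 170.7 FPKM in MEC and 84.9, 48.7 and 74.8 FPKM in the lines. Every line was below every MEC library, with line 233 the lowest. The mean fell from 200.3 ± 29.3 to 69.5 ± 18.7 FPKM (SD, n = 3 each), a log2 fold change of -1.54 (SE 0.24, 95% interval -2.12 to -0.96, adjusted p = 0.015). The call was lost without MEC 1 (adjusted p = 0.0762) and without MEC 2 (adjusted p = 0.0722). Of the exonic bases of Ilk, 89.7% are shared with exons of Taf10 and Rrp8 on the opposite strand, mostly through a long exon of a Taf10 transcript. Whether reads were counted by strand is not given in the sources used here, so reads of Ilk and of this transcript cannot be told apart. Taf10 itself was listed at 127.6, 121.5 and 125.9 FPKM in MEC and 101.8, 130.3 and 152.5 FPKM in the lines, with overlapping groups. The overlap with exons of the opposite strand was 25.5% for Vcl (with Ap3m1) and at most 8.15% for the other genes. For Zyx it was 4.38% (with Epha1), and Epha1 itself was called lower (log2 fold change -2.16, adjusted p = 0.0145, limma). What part this overlap had in the level of Zyx was not tested. Of the 50-base stretches of Ilk transcripts 8.02% also occur in other genes, chiefly Gm6263, and the α-actinins share 0.29% (Actn1) and 0.254% (Actn4) of theirs with each other.

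Parva (α-parvin, chr7:112427505-112591692), which binds ILK and actin, was 96.4, 93.8 and 102.6 FPKM in MEC and 81.4, 85.2 and 62.8 FPKM in the lines. The lines were below MEC by a small margin except line 336, at 64.3% of the MEC mean. Its log2 fold change was -0.36 (SE 0.16, 95% interval -0.74 to 0.03, adjusted p = 0.202), and no alternative fit called it.

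In the signaling layer no gene was called, and the lines differed among themselves more than the MEC libraries did. Pxn (paxillin, chr5:115506676-115555987), a scaffold for kinases and their adaptors, was 42, 42.5 and 45.1 FPKM in MEC and 55.9, 45.4 and 84.4 FPKM in the lines. It was the single gene of the 10 with all lines above all MEC libraries, by a wide margin in line 336 and by a narrow margin in line 233. Its log2 fold change was 0.46 (SE 0.24, 95% interval -0.11 to 1.03, adjusted p = 0.254). Ptk2 (FAK, chr15:73205102-73423280) was 21.5, 24 and 18.6 FPKM in MEC and 26.5, 19.4 and 11.4 FPKM in the lines. Line 199 was above the MEC range, line 233 inside it and line 336 below it. The log2 fold change was -0.22 (SE 0.30, 95% interval -0.95 to 0.51, adjusted p = 0.668), and it turned to 0.09 without line 336.

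Each line was then set against the MEC libraries, with no test since a line has 1 library. A gene was counted when its log2 ratio to the MEC mean was beyond 0.75 and its level was outside the MEC range. Line 199 had 4 of the 10 lower (Zyx, Ilk, Actn1 and Actn4) and 0 higher, where 16.9% of all tested entries were lower and 12.8% higher. Line 233 had 5 lower (these 4 and Flna) and 0 higher, against 17.5% and 9.92%. Line 336 had 6 lower (these 5 and Ptk2) and 1 higher (Pxn), against 18.2% and 11.2%. The genes Zyx, Ilk, Actn1 and Actn4 were thus lower in each of the 3 lines. The median log2 ratio over the 10 genes was -0.23, -0.81 and -0.86 for lines 199, 233 and 336, and between 0.00 and 0.02 over all tested entries.

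**Figure D3:**
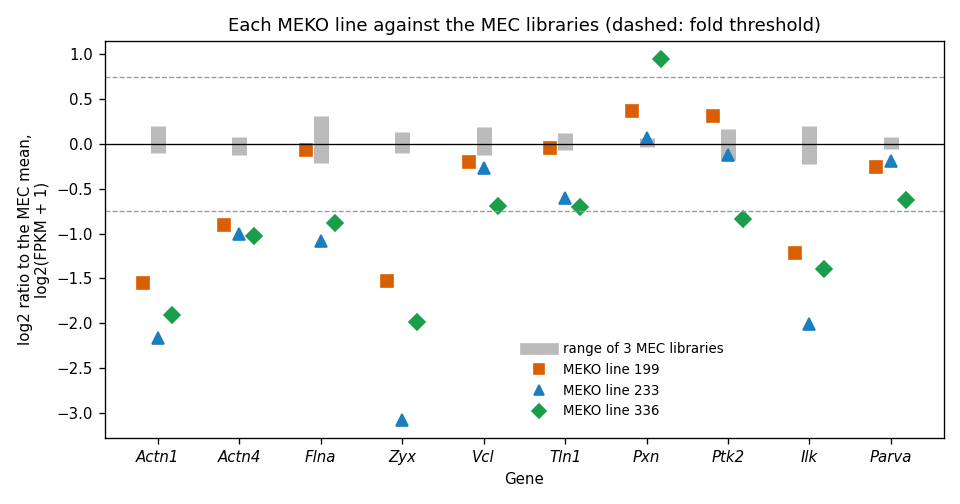
The log2 ratio of each line to the MEC mean on the log2(FPKM + 1) scale, with the range of the 3 MEC libraries as a grey bar and the fold threshold of 0.75 dashed. Zyx, Ilk, Actn1 and Actn4 lie below the lower dashed line in all 3 lines, Flna does so in lines 233 and 336, and Pxn lies above the upper dashed line in line 336.

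The order of abundance also changed. The 10 genes summed to 1774, 2108 and 1778 FPKM in MEC and to 1062, 717.8 and 817.8 FPKM in lines 199, 233 and 336. Actn1 made up 30.3% to 31.6% of that sum in MEC and 17.9% to 18.8% in MEKO. In MEC the means ran from Actn1 through Actn4, Flna, Zyx, Ilk, Parva, Tln1, Pxn and Vcl to Ptk2, and the ranges of the neighbours Actn4 and Flna, Zyx and Ilk, and Tln1 and Pxn overlapped. In MEKO the order was Flna, Actn4, Actn1, Parva, Ilk, Pxn, Zyx, Tln1, Vcl and Ptk2, and the ranges of all neighbours overlapped except those of Actn1 and Parva. Ptk2 was the lowest of the 10 in all 6 libraries.

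Ratios between FPKM values of the same library do not depend on how the libraries were scaled to each other. Of 12 pairs examined, 9 did not overlap between the groups and 3 overlapped. The 9 had an exact two-sided permutation p of 0.1 each, 0.133 after Benjamini-Hochberg adjustment over the 12 pairs. No ratio passed a threshold of 0.05, which 3 libraries against 3 cannot reach. The called genes Actn1, Actn4, Ilk and Zyx recur among the pairs, so the 9 are not separate results. The share of other gene pairs that do not overlap was not computed. The ratio of Actn1 to Actn4 was 1.77, 1.92 and 1.54 in MEC and 1.1, 0.78 and 0.944 in lines 199, 233 and 336. Actn1 exceeded Actn4 in every MEC library and in line 199, and Actn4 exceeded Actn1 in the other lines. The sum of both α-actinins over Flna had a geometric mean of 3 in MEC and 1.72 in MEKO. It was 2.95, 2.69 and 3.4 in MEC and 1.3, 2.04 and 1.91 in lines 199, 233 and 336. The log2 difference was -0.81, and -0.60 without line 199.

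The ratio of Ilk to Parva was 2.09, 2.44 and 1.66 in MEC and 1.04, 0.571 and 1.19 in the lines. That of Ilk to Lims1, the gene of the partner PINCH1, had a geometric mean of 4.16 in MEC and 2.05 in MEKO. Both put Ilk lower relative to its partners in every line than in any MEC library, within the limit on Ilk given above. Zyx was lower relative to Trip6 and Lpp, the LIM genes it was paired with. Fblim1, another LIM gene, fell by a similar amount (log2 fold change -2.17, against -2.20 for Zyx) and was not paired with it. The ratio of Zyx to Trip6 was 8.01, 9.04 and 8.44 in MEC and 1.87, 1.09 and 2.12 in the lines. That of Zyx to Lpp had a geometric mean of 10.6 in MEC and 4.08 in MEKO.

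In the pairs of Ptk2, Pxn and Parva with a relative, the relative was not called (adjusted p = 0.0595 for Ptk2b, 0.112 for Tgfb1i1 and 0.161 for Parvb, limma). The ratio of Ptk2 to Ptk2b, the FAK-related kinase Pyk2, was 1.47, 1.4 and 1.23 in MEC and 10.8, 2.9 and 38.4 in lines 199, 233 and 336, while Ptk2b itself was 14.6 to 17.2 FPKM in MEC and 2.46, 6.71 and 0.297 FPKM in the lines. The ratio of Pxn to Tgfb1i1, the gene of the paxillin relative Hic-5, was 0.857 to 1.22 in MEC, 2.07 in line 199 and 432.9 and 450.6 in lines 233 and 336, where Tgfb1i1 was 0.105 and 0.187 FPKM. The ratio of Parva to Parvb was 66.5 to 338.6 in MEC and 18.5, 2.74 and 28.5 in the lines, with Parvb at 0.303 to 1.41 FPKM in MEC and 4.41, 31.2 and 2.2 FPKM in the lines. These 3 ratios rest on values below 1 FPKM in at least 1 library. Among the ratios that overlapped were Tln1 to Tln2 (p = 0.4, exact) and Vcl to Tln1 (p = 0.8, exact). That of Vcl to Tln1 was 0.731, 0.771 and 0.71 in MEC and 0.663, 0.931 and 0.737 in the lines.

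**Figure D4:**
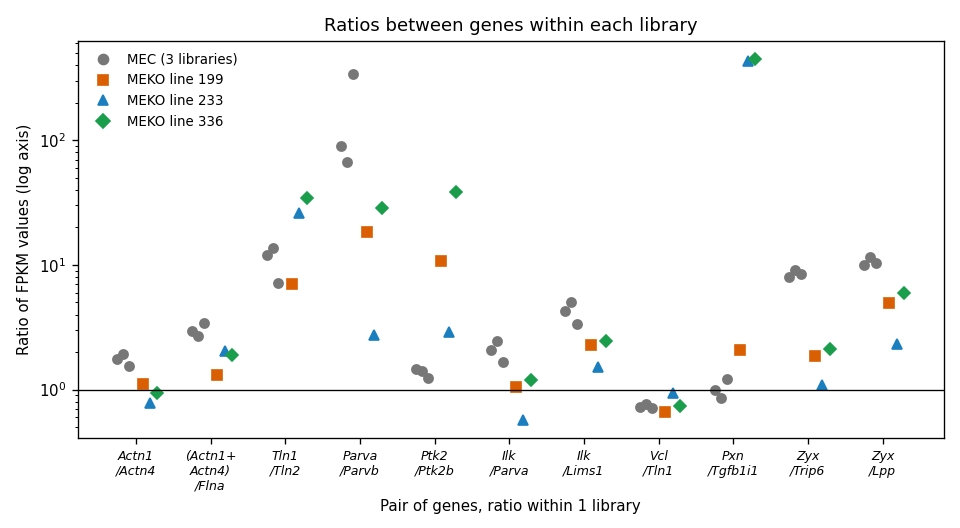
The ratio of FPKM values (log axis) for 11 of the pairs within each library, with MEC as circles and lines 199, 233 and 336 as squares, triangles and diamonds. The points of Vcl to Tln1 mix around a geometric mean of 0.737 in MEC and 0.769 in MEKO, and those of Zyx to Trip6 lie at 8.01 to 9.04 in MEC and at 1.09 to 2.12 in the lines.

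Other genes of the adhesion were taken as lists. Of 20 tested integrin tail and scaffold adaptors 1 fell and 0 rose, with a median log2 fold change of -0.47. The gene that fell was Sorbs3 (vinexin, a vinculin-binding adaptor), from 16.2, 16.4 and 20.8 FPKM to 2.06, 2.28 and 2.71 FPKM (log2 fold change -2.48, adjusted p = 0.00166). The share of the list that fell, 5%, was close to the 7.26% of lower calls over all entries. The list had 5 calls without line 199 and 2 without line 336, all lower. Without line 233 it had 2, of which 1 was higher. Over all tested entries, the 1234 calls became 1886, 902 and 984 without lines 199, 336 and 233.

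Of 27 tested kinases, GTPases and their adaptors 4 fell and 1 rose, with a median of -0.03. The share that fell was 14.8%, against 7.26% lower and 2.64% higher calls over all entries. Arhgef6 (αPIX, an exchange factor for Rac and Cdc42) fell from 8.71, 8.31 and 10.7 FPKM to 0.809, 1.67 and 0.298 FPKM (log2 fold change -2.47, adjusted p = 0.00662). Pak1, a kinase that binds this factor and is activated by Rac and Cdc42, fell from 36.9, 38 and 51.2 FPKM to 10.9, 7.07 and 10.7 FPKM (log2 fold change -2.04, adjusted p = 0.00466). Elmo1, part of the Dock1 exchange factor, fell by 1.64 and the GTPase gene Cdc42 fell by 0.90 on the log2 scale. The one that rose was Asap1, a GTPase-activating protein for Arf at adhesions, from 17.3, 22.1 and 25 FPKM to 57.8, 78.8 and 48.6 FPKM (log2 fold change 1.47, adjusted p = 0.0154). The list had 2 calls without MEC 1 and 2 without MEC 2. Over all tested entries, the 1234 calls became 300 and 336 in these fits.

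Of 31 tested actin-binding and LIM proteins 8 fell and 0 rose, 25.8% against the 7.26% of all entries, with a median of -0.69. The called genes with the largest changes, all with LIM domains, were Pdlim4 (log2 fold change -3.79), Csrp1 (-3.66) and Pdlim3 (-2.92), followed by Fblim1 (migfilin, which binds filamin, -2.17) and Pdlim7 (-2.03). Csrp1 was 524.0, 701.0 and 487.3 FPKM in MEC and 122.7, 13.5 and 49.2 FPKM in lines 199, 233 and 336. Pdlim3 was listed at 0 in lines 199 and 233. The list had 2 calls without MEC 1, 2 without MEC 2, 3 without MEC 3 and 3 without line 336, all lower. Without line 199 it had 19, of which 17 were lower and 2 higher. Without line 233 it had 7, of which 6 were lower and 1 higher. Calls over all tested entries were 300, 336 and 560 without MEC 1, 2 and 3, against 1234 with all libraries. Without lines 336, 199 and 233 those were 902, 1886 and 984.

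Of 26 tested actin, myosin and contractile filament genes 10 fell and 0 rose, 38.5% of the list against 7.26% lower calls over all entries, with a median of -1.12. All 26 had a log2 fold change below 0, except that Mkl2 was above 0 under quantile normalization and Mkl2 and Myh10 were without line 233. Among the called genes the largest changes were in Myh11, the smooth muscle myosin heavy chain (32.7, 41.8 and 22.4 FPKM in MEC against 0.0812, 0.0148 and 0.0382 FPKM, log2 fold change -4.95), in Tpm2, a tropomyosin (-3.88), and in Mylk, the myosin light chain kinase (-3.09). Tagln2, an actin-bundling transgelin, fell by 1.93 and Tpm4, a non-muscle tropomyosin, by 1.38 on the log2 scale. Myh11 is also a myoepithelial marker, and what part the basal marker sums had in these counts was not tested. The list had 2 calls without MEC 1, 2 without MEC 2, 4 without MEC 3, 5 without line 336, 6 without line 233 and 17 without line 199. Calls over all 12461 tested entries moved too, from 1234 to 300, 336 and 560 without MEC 1, 2 and 3. They were 902, 984 and 1886 without lines 336, 233 and 199.

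**Figure D5:**
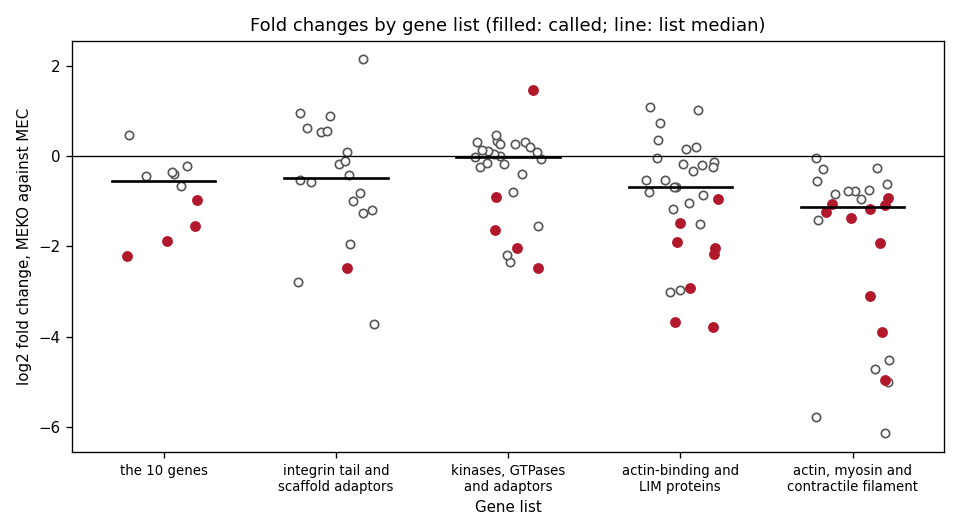
The log2 fold change, MEKO against MEC, of each tested gene of the 10 and of the 4 lists, with called genes filled and a line at each median. The medians run from -0.03 for the kinases and GTPases to -1.12 for the contractile filament genes, and the single filled point above 0 is Asap1 at 1.47.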

How the data were processed

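RNA of 3 MEC and 3 MEKO cultures was prepared with TruSeq libraries and sequenced in pairs. The authors trimmed the reads, aligned them with TopHat2 2.0.14 and Bowtie2 and estimated FPKM with Cufflinks 2.2.1 on mm10, and the deposited table holds 1 FPKM column a library and no counts. FPKM was tested on the log2 scale after adding 1, for the 12461 entries with a mean of at least 1 over all 6 libraries, with limma 3.58.1 (R 4.3.3), a trend of variance on mean, and p-values adjusted by Benjamini and Hochberg. A fold change on this scale understates that of low genes. A call needed an adjusted p under 0.05 and a log2 fold change beyond 0.75, thresholds taken from the study's methods. Of 37755 entries, 2 held no values and 466 join several gene names. No batch is given in the labels. The study describes its MEC preparations and its MEKO lines as independent of each other, with 3 of each. Each gave 1 library, so p-values measure the spread between these libraries. Absolute depth is not given by the FPKM values. Relative depth came from the step between the smallest values. Ratios used no added constant and an exact permutation test. Gene positions are from GENCODE M21 and promoter windows from RefSeq, on the same build as the authors' alignment. The limma fit was tested on simulated data. All 10 genes are named, with the genes of the ratio pairs, up to 5 called genes a list with the largest log2 fold changes, Mapk8 and Mapk9, and the markers. Actn2, Actn3, Taf10, Rrp8, Epha1, Mkl2 and Myh10 were named after their values were seen, as were the genes of the lists given under other observations. A ratio pair and a marker are not reported here. The members, lists and tests were chosen with earlier results of these data known. Alternatives were another added constant, other filters, other scalings, no trend, array weights and leaving out each library.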

Additional observations from a re-analysis of the deposited data

How the results depend on the processing

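The count of called genes among the 10 was 4 in the 8 alternatives that keep all libraries and 1 to 5 when a library was left out, against 4. Over all tested entries 1234 were called, 1978 with array weights, 738 at a mean FPKM of at least 5 and 300 to 1886 when a library was left out. With array weights, whose estimation stopped short of convergence, the calls among integrin tail and scaffold adaptors were 5 (1 in the reported fit), among kinases and GTPases 8 (5), among actin-binding and LIM proteins 17 (8) and among contractile filament genes 17 (10). Of these calls with array weights 1, 1, 2 and 0, in the same order, were higher in MEKO. With no filter the last lists had 5 and 6 calls. When a library was left out, the lists in the same order had 1 to 5, 2 to 6, 2 to 19 and 2 to 17 calls. The cause was not tested. The log2 ratio of Vcl to Tln1 was 0.06, and -0.08 to 0.17 when a library was left out, reversed without line 233. The log2 fold change of Ptk2 was -0.48 to 0.09 when a library was left out, reversed without line 336. The other 11 ratios kept their direction. Quantile normalization moved the median of all entries to 0.10 and the share of lower calls from 73.3% to 62.1%, and the 4 calls among the 10 genes stayed. The counts for each line stayed within 1.5 times of those reported. No paired analysis was possible because the groups share no replicate numbers. Read counts are not given, so counting error could not be set beside the spread between libraries.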

Other observations

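Several contractile and adhesion genes that were not called kept part or all of the MEC level in line 199 and were far below it in the other lines. These genes were chosen after their values were seen. Acta2, the smooth muscle actin, was 736.4 to 1452 FPKM in MEC, 719.5 FPKM in line 199 and 1.13 and 1.29 FPKM in lines 233 and 336. Tagln, an actin-binding protein of smooth muscle, was 361.5 to 791.9 FPKM in MEC, 184.5 FPKM in line 199 and 1.18 and 1.46 FPKM in the other lines. Pdlim1 and Palld, which bind α-actinin, were 212.3 and 67.3 FPKM in line 199, at most 7.79 and 5.03 FPKM in the other lines, and 130.4 to 157.1 and 80.9 to 104.9 FPKM in MEC. Uncalled genes of the same lists also went the other way. Sorbs2 was 72.3 to 112.3 FPKM in MEC, 2.43 FPKM in line 199 and 78.9 and 39.1 FPKM in lines 233 and 336. Myh14 was 60.6 to 84.6 FPKM in MEC, 9.51 FPKM in line 199 and 52 and 37.9 FPKM in the other lines. Of the markers, Krt5 was 608.1 FPKM and Col1a1 599.7 FPKM in line 199, and at most 15.3 and 1.08 FPKM in the other lines. Other markers of the same lists were near 0 in line 199, with Oxtr at 0.0125, Myh11 at 0.0812, Dcn at 0.311 and Lum at 0.0264 FPKM. The leukocyte, endothelial and adipocyte marker lists summed to at most 40.2, 19.7 and 11.7 FPKM in any library, with Cd3e, Adgre1 (listed as Emr1), Plin1 and Cfd at 0 in every MEKO line.

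Some genes of the lists were higher in MEKO without being called. Ezr (ezrin, which links actin to the membrane) was 121.6, 129.6 and 169.0 FPKM in MEC and 162.7, 345.0 and 388.7 FPKM in lines 199, 233 and 336 (adjusted p = 0.123, limma). Line 199 lay inside the MEC range, so the groups overlapped. Tns4, a tensin without an actin-binding region, was 22.6, 24.4 and 20.2 FPKM in MEC and 65.8, 37.8 and 34.2 FPKM in the lines (adjusted p = 0.0731, limma). Every line was above every MEC library, which held for 18.5% of all tested entries. Other uncalled genes of the lists, among them Itgb1bp1, Ppfibp1 and Pak2, shared this.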
